A study of Mus musculus with 6 samples.

Results

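The 42 mouse genes whose symbol marks them as a collagen alpha chain were followed through 6 libraries of cells sorted from the colon. They were all genes with a probe set of 1 symbol made of Col, a type number, the letter a and a chain number. They were 42 of the 18193 genes measured and had 82 probe sets, and the probe set that was brightest on average across the 6 libraries stands for its gene. The mice were Mapttm1(EGFP)Klt/J animals, which carry EGFP at the locus of tau, a neuronal microtubule protein. All of them were killed 3 to 4 days after cholera toxin subunit B with a fluorescent tag was injected into the celiac ganglion, so that both groups share the reporter allele, the surgery and the tracer. Age, sex and zygosity are not given in the sources used here. Cells of the myenteric plexus, the nerve network within the muscle wall, were sorted into 3 libraries labelled Mapt-EGFP+ colonic neurons and 3 labelled Mapt-EGFP- myenteric cells. Each library pooled cells of 2, 4 or 6 mice, and about 50 ng of its RNA went to an Affymetrix Mouse Genome 430 2.0 array.

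Collagens are secreted or membrane-bound trimers whose chains wind into a triple helix of glycine-rich repeats. Fibrillar collagens build the banded fibres of connective tissue, and collagen IV with collagens XV and XVIII belongs to basement membranes, the sheets that surround muscle, vessels, nerves and glia. Collagen VI forms beaded microfibrils around cells. In the gut wall, fibroblast-like cells and smooth muscle are known as main sources of fibrillar collagen, and enteric ganglia are wrapped in a basement membrane.

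Levels are deposited log2 values listed by replicate number from 1 to 3, first for the EGFP-positive and then for the EGFP-negative label, and differences are EGFP-positive minus EGFP-negative. A probe set's level is compared only with itself across libraries, because probe sets differ in how well they bind. Probe sets for TrpnX, a bacterial control transcript, read 1.00 to 1.48 and mark the background. Mapt itself read 1.43, 1.32 and 5.55 against 1.44, 1.64 and 1.38. EGFP-positive replicates 1 and 2 thus held no Mapt signal above the EGFP-negative libraries, and directions are those of the labels. The EGFP allele lies at the Mapt locus and its zygosity is not given, so Mapt alone cannot check the labels. The mean of 10 pan-neuronal markers was 3.55, 3.35 and 6.57 against 3.78, 3.67 and 3.94. The mean of 10 markers of fibroblast-like cells lay between 9.07 and 10.34 in all 6 libraries. Between 6182 and 7621 probe sets of a library reached a log2 value of 6, with the fewest in EGFP-negative replicate 1. The number of arrays limits the precision.

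No collagen gene passed the test between the labels. Of the 42, 4 had higher values in every library labelled EGFP-positive than in any labelled EGFP-negative, and 3 had lower ones. That is 9.52% and 7.14% of the collagens, beside 3.07% and 6.04% of all 18193 genes. The 4 higher genes were Col18a1, Col4a4, Col20a1 and the dim Col9a3, and the 3 lower ones, Col13a1, Col19a1 and Col22a1, all read under 4. With limma and Benjamini-Hochberg adjustment over all genes, 0 collagens and 0 genes overall passed an adjusted p of 0.05, so the background is 0%. At an unadjusted p under 0.05 there were 4 collagens, or 9.52%, beside 893 genes, or 4.91% of all. The median difference of the 42 collagens was 0.09, beside -0.02 over all genes, and 25 of the 42 had a positive difference.

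**Figure D1:**
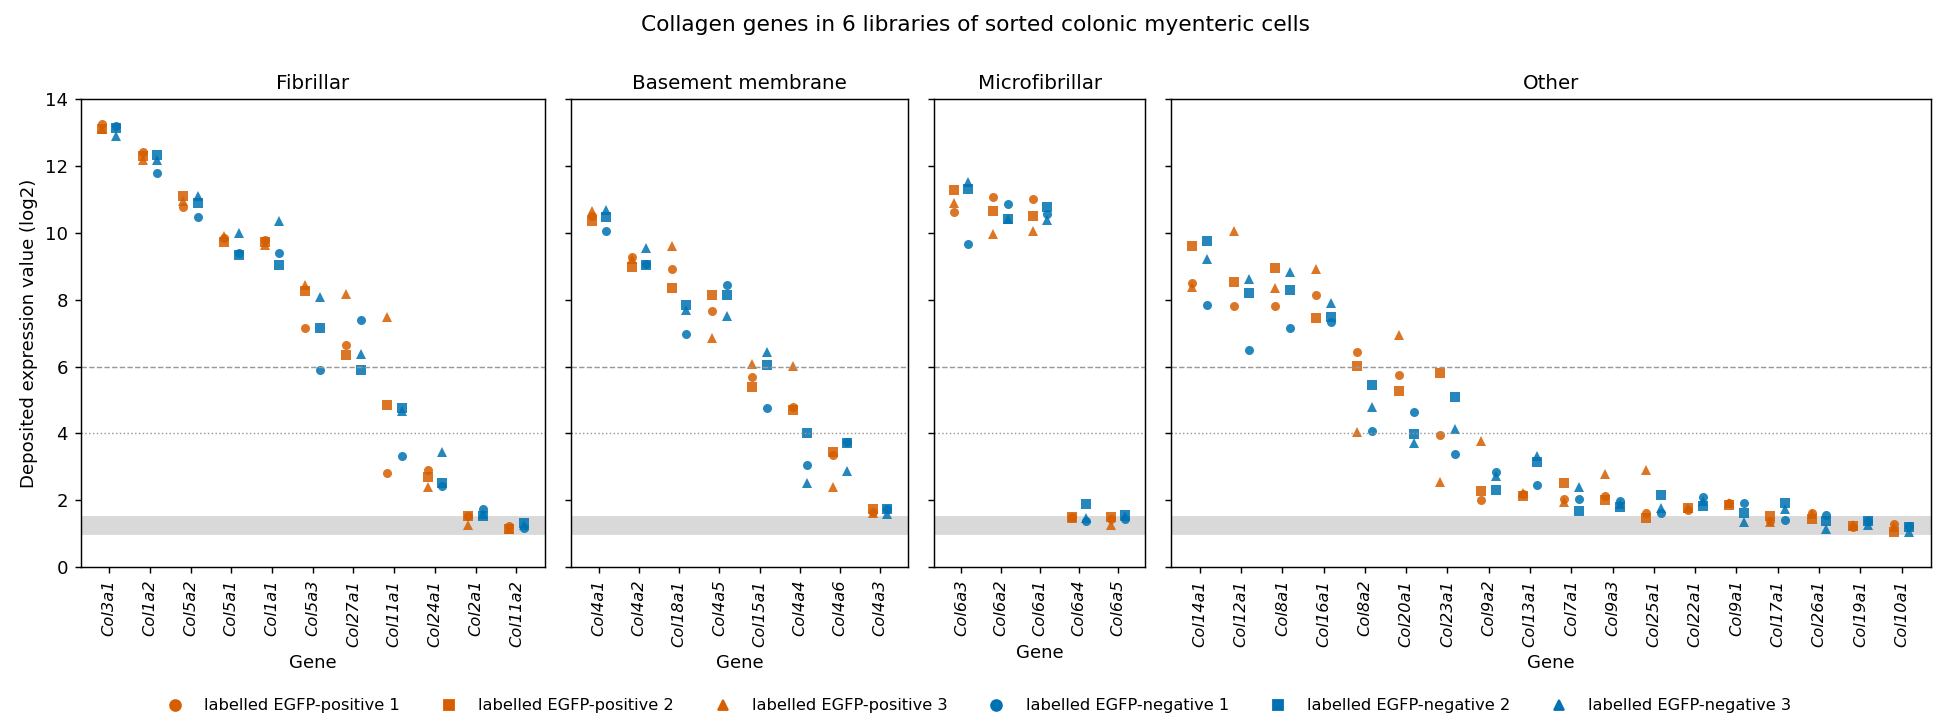
Deposited log2 value (vertical axis) of the 42 collagen genes in each of 6 libraries, in panels by collagen group. Orange marks libraries labelled EGFP-positive and blue those labelled EGFP-negative, the marker shape gives the replicate number, the grey band is the TrpnX background and the lines stand at 4 and 6. The 2 colours overlap for most genes, while Col18a1, Col4a4 and Col20a1 separate. Genes are ordered by their mean for reading only.

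By level, 16 collagens read 6 or more in every library, 18 read under 4 in every library and 8 lay between. For orientation at the DNA level, the 250 bases before the annotated start are shown for the member whose groups separated at a value above 6 throughout, Col18a1, and for a pair of fibrillar genes with small differences, Col1a2 and Col3a1. They come from RefSeq promoter windows of build GRCm38.p6, in which 33 of the 42 genes were found with 36 windows. They lie at chr10:77166531-77166780 on the minus strand, chr6:4505368-4505617 on the plus strand and chr1:45311288-45311537 on the plus strand, and each lies outside annotated genes. Col18a1 has a further annotated start inside an annotated gene, and its window is not shown. Capitals mark matches to the motifs searched.
Col18a1: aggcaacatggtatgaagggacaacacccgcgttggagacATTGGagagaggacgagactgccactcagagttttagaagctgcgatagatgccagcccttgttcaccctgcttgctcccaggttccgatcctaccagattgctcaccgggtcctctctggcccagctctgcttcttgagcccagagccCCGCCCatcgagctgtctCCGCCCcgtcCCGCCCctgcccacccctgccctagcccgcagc
Col1a2: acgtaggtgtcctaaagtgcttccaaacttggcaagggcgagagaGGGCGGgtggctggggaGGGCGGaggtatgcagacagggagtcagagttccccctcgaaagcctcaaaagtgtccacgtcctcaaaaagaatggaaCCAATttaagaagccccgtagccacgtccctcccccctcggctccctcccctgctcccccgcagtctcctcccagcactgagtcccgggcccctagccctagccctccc
Col3a1: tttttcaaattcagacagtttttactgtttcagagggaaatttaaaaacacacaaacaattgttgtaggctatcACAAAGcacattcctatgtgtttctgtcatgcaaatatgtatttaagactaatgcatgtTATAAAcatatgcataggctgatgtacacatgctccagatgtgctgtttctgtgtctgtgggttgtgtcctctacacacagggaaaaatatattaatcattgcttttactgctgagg

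The motifs were searched on both strands and did not overlap in these windows. They were the GC box GGGCGG, the CCAAT box CCAAT, the TATA box TATAAA, the SOX core letters ACAAAG and ACAATG, and the AP-1 letters TGANTCA. The Col18a1 window held 3 GC boxes, 55, 37 and 27 bases before the start, and a CCAAT box 205 bases before it. The Col1a2 window held 2 GC boxes and a CCAAT box, the latter 104 bases before the start. The Col3a1 window had a GC content of 35.2%, against 62.0% in both the Col18a1 and the Col1a2 window. It held a TATA box 111 bases before the start and a SOX core 170 bases before it. Of all 32851 windows of this length 32.7% held a GC box, 33.8% a CCAAT box and 12.4% a TATA box. The SOX core letters ACAAAG stood in 16.5%, ACAATG in 10.7% and the AP-1 letters in 6.75%. Among the 36 collagen windows the shares were 58.3%, 36.1%, 13.9%, 8.33%, 0.0% and 2.78% in the same order. A match is a description of letters and not a site.

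The fibrillar collagens of ordinary connective tissue had small estimated differences between the labels, and each 95% interval included 0. Col1a1, which codes for the alpha1 chain of collagen I, the main tension-bearing fibre, read 9.81, 9.74 and 9.63 against 9.40, 9.03 and 10.35. Col1a2, its partner chain, read 12.42, 12.30 and 12.20 against 11.79, 12.33 and 12.20. Col3a1, the gene of collagen III in reticular fibres, read 13.26, 13.13 and 13.13 against 13.22, 13.16 and 12.92. In all of these the groups overlapped, and the libraries labelled EGFP-negative spread more widely than those labelled EGFP-positive. The differences were 0.13 (SE 0.35) for Col1a1, 0.20 (SE 0.18) for Col1a2 and 0.07 (SE 0.13) for Col3a1. Their 95% intervals reached from -0.74 to 1.00, from -0.24 to 0.64 and from -0.25 to 0.40, each with a limma adjusted p of 1.00. The sign of the Col1a1 difference turned without EGFP-negative replicate 2, to -0.15, and that of Col3a1 without EGFP-negative replicate 3, to -0.02. Col3a1 also fell to -0.01 under a second quantile normalisation and as the mean of both its probe sets.

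Collagen V, which starts and limits the growth of collagen I fibrils, has chains with unlike patterns. Col5a1 read 9.85, 9.73 and 9.93 against 9.41, 9.34 and 10.004, a difference of 0.25 (SE 0.21), and Col5a2 read 10.78, 11.11 and 10.96 against 10.47, 10.91 and 11.12, one of 0.12 (SE 0.20). Both overlapped between the groups, with a limma adjusted p of 1.00, and Col5a2 gave -0.06 without EGFP-negative replicate 1. Col5a3, another chain of that family, varied more, at 7.15, 8.27 and 8.44 against 5.90, 7.15 and 8.10. Its difference was 0.90 (SE 0.65, limma adjusted p = 1.00), and the EGFP-positive library was the higher in each same-numbered pair, by 1.25, 1.12 and 0.34. It was 0.33 without EGFP-negative replicate 1 and 1.43 without EGFP-negative replicate 3, and 0.44 as the mean of its probe sets. Col5a2 lies next to Col3a1 among protein-coding genes, and both had small differences.

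Col11a1, a chain of cartilage fibrils, was the fibrillar gene that varied most. It read 2.82, 4.86 and 7.50 against 3.33, 4.76 and 4.66. EGFP-positive replicate 3 was the highest and EGFP-positive replicate 1 the lowest. The former was also the library with Mapt above background and with the highest means of both pan-neuronal and enteric glia markers. The difference was 0.81 (SE 1.21, limma adjusted p = 1.00), and leaving out EGFP-positive replicate 3 gave -0.41. A second Col11a1 probe set read 3.85, 3.10 and 6.67 against 2.87, 2.61 and 3.00, so that its groups did not overlap. Col27a1, another cartilage-type fibrillar gene, read 6.65, 6.35 and 8.17 against 7.40, 5.89 and 6.38, with its highest value in that same library. Its difference was 0.50, and -0.06 without that library. Col24a1, Col2a1 and Col11a2 stayed between 1.14 and 3.44. The 11 fibrillar genes had a median difference of 0.13, with 8 positive and 3 negative.

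**Figure D2:**
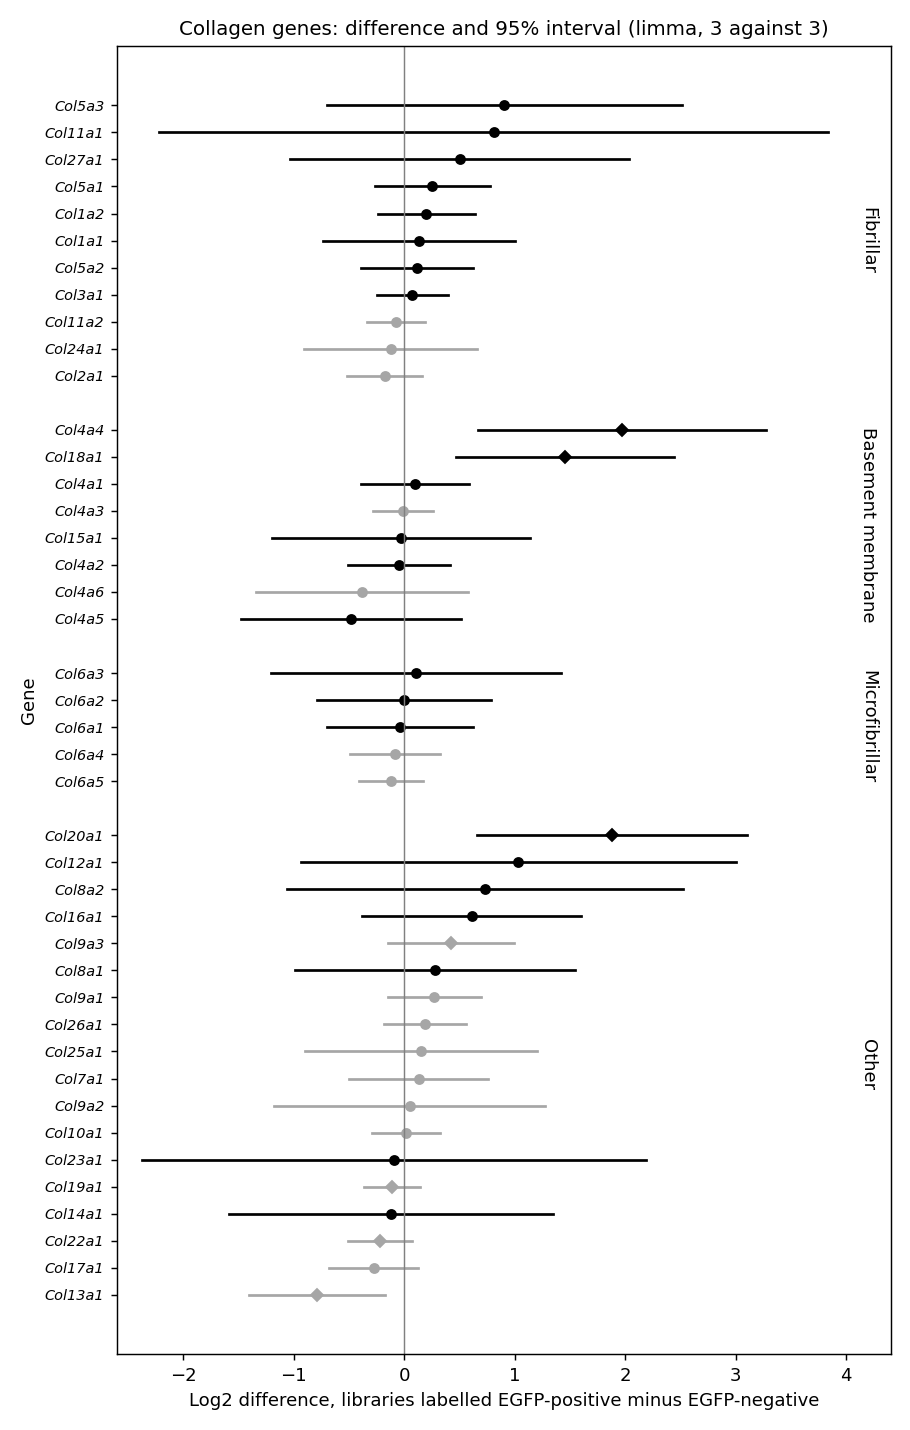
Log2 difference, EGFP-positive minus EGFP-negative (horizontal axis), with the 95% interval from limma for each of 42 collagen genes, grouped by type. Diamonds mark genes whose groups did not overlap and grey marks genes under 4 in all libraries. The intervals of Col4a4, Col18a1 and Col20a1 lie above 0 and that of the dim Col13a1 below it, before adjustment over all genes.

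Among the basement membrane collagens, the common chains of collagen IV had differences within their error, while Col18a1 and Col4a4 separated the labels. Col4a1 and Col4a2, the chains of the ubiquitous collagen IV network, lie head to head, with annotated starts 21 bases apart in GRCm38.p6. Col4a1 read 10.52, 10.35 and 10.65 against 10.07, 10.47 and 10.69, and Col4a2 read 9.30, 8.99 and 9.24 against 9.06, 9.05 and 9.54. Both overlapped between the groups. Their differences were 0.10 (SE 0.19; 95% interval -0.39 to 0.58) and -0.04 (SE 0.18; 95% interval -0.51 to 0.42), each with a limma adjusted p of 1.00. A second Col4a1 probe set gave -0.12, and the mean of both gave -0.01. Without EGFP-negative replicate 1, the Col4a1 difference was -0.07.

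Col18a1 codes for collagen XVIII, a basement membrane proteoglycan from which endostatin is cut. It read 8.92, 8.35 and 9.61 against 6.97, 7.86 and 7.68, or 8.96 ± 0.63 (SD, n = 3) against 7.50 ± 0.47 (SD, n = 3). Each library labelled EGFP-positive lay above each labelled EGFP-negative, with the narrowest gap between the replicates numbered 2. The difference was 1.46 (SE 0.40; 95% interval 0.47 to 2.44), or 2.74-fold, and failed the adjusted threshold (limma unadjusted p = 0.0120, adjusted p = 0.984). The second Col18a1 probe set read 8.25, 7.77 and 9.08 against 6.68, 7.19 and 7.15, again without overlap. Leaving out any 1 library gave 1.13 to 1.76, and array weights gave 0.96.

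Col4a4 codes for the alpha4 chain of collagen IV, which joins the alpha3 and alpha5 chains in the specialised network of the kidney filter. It read 4.78, 4.72 and 6.02 against 3.07, 4.02 and 2.52, or 5.17 ± 0.73 against 3.20 ± 0.76 (SD, n = 3 each). The groups did not overlap, and EGFP-positive replicate 3 was the highest. The difference was 1.97 (SE 0.52; 95% interval 0.67 to 3.28), or 3.92-fold (limma unadjusted p = 0.0107, adjusted p = 0.969). A second probe set read 4.36, 3.48 and 4.97 against 3.04, 2.43 and 1.54 and did not overlap either, while the last, between 1.49 and 2.12, lay near background. Leaving out any 1 library gave 1.55 to 2.38. The partner chain Col4a3, the neighbour of Col4a4, stayed between 1.58 and 1.74 in all libraries, near the TrpnX background.

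Col4a5, the remaining chain of that network and also a chain of smooth muscle basement membranes, went the other way. It read 7.67, 8.14 and 6.86 against 8.44, 8.15 and 7.53, a difference of -0.48 (SE 0.40, limma adjusted p = 1.00). The groups overlapped, yet the EGFP-positive library was the lower in each same-numbered pair, by -0.77, -0.01 and -0.66. Without EGFP-positive replicate 3 the difference was -0.13, without EGFP-positive replicate 2 -0.77, with ribosomal centring -0.13 and with array weights -0.16. Its neighbour Col4a6, with which it forms a smooth muscle network, was dim at 3.36, 3.43 and 2.39 against 3.74, 3.73 and 2.87. It too was lower in each pair, by -0.37, -0.30 and -0.48, although a second Col4a6 probe set had a difference of 0.16. The starts of both genes lie 1343 bases apart, head to head. Col15a1, whose product bridges basement membranes and fibrils, read 5.68, 5.40 and 6.09 against 4.77, 6.06 and 6.43, a difference of -0.03. The 8 basement membrane genes had a median difference of -0.02, with 3 positive and 5 negative.

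**Figure D3:**
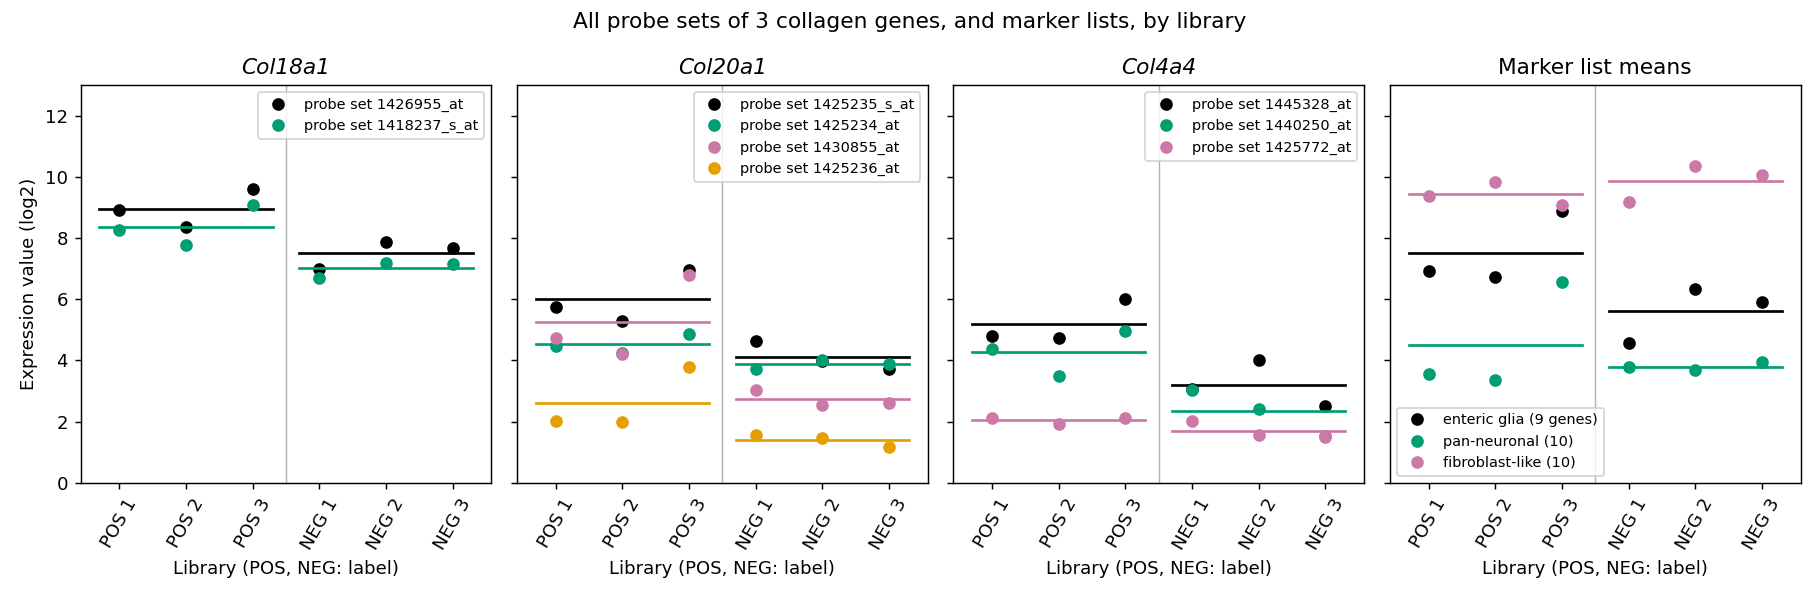
Log2 value (vertical axis) of every probe set of Col18a1, Col20a1 and Col4a4 in each library, and the means of 3 marker lists. Points are libraries and horizontal lines are group means. The 3 genes were chosen for this figure because their groups did not overlap. Every probe set of Col18a1 and Col20a1 separates the labels, and the enteric glia mean does so as well, at 6.72 to 8.87 against 4.56 to 6.35.

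For every microfibrillar collagen the 95% interval of the difference between the labels included 0. Col6a1, Col6a2 and Col6a3 code for the chains of collagen VI, which links cells to the surrounding matrix. Col6a1 read 11.01, 10.51 and 10.08 against 10.58, 10.77 and 10.38, and Col6a2, its neighbour on the chromosome, read 11.08, 10.68 and 9.98 against 10.87, 10.43 and 10.43. Both had their highest value in EGFP-positive replicate 1 and their lowest in EGFP-positive replicate 3, with groups that overlapped. Col6a3 read 10.63, 11.29 and 10.92 against 9.68, 11.32 and 11.52, lowest in EGFP-negative replicate 1. The differences were -0.04 (SE 0.27), 0.00089 (SE 0.32) and 0.10 (SE 0.53), each with a limma adjusted p of 1.00. Their 95% intervals reached from -0.70 to 0.62, from -0.79 to 0.79 and from -1.21 to 1.42. The sign of each of these differences turned when single libraries were left out, and without EGFP-negative replicate 1 Col6a3 gave -0.48. Col6a4 and Col6a5 stayed between 1.26 and 1.88. The median difference of the 5 genes was -0.04.

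Of the 18 other collagens, Col20a1 separated the labels and most transmembrane and cartilage types were near background. Col20a1 codes for collagen XX, a member of the FACIT class, collagens with interrupted helices that attach to other fibrils. It read 5.75, 5.28 and 6.95 against 4.64, 3.97 and 3.73, or 5.99 ± 0.86 against 4.11 ± 0.47 (SD, n = 3 each). All EGFP-positive values lay above all EGFP-negative values. The difference was 1.88 (SE 0.49; 95% interval 0.66 to 3.10), or 3.68-fold, and failed the adjusted threshold (limma unadjusted p = 0.00989, adjusted p = 0.969). All 4 Col20a1 probe sets were without overlap, with differences of 0.65, 1.21, 1.88 and 2.51. The value of 0.65 represents the gene when probe sets ending in _x_at and _s_at are left out. Leaving out any 1 library gave 1.40 to 2.24.

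The other FACIT genes above background belong to fibril surfaces in connective tissue. Col12a1 read 7.81, 8.54 and 10.07 against 6.51, 8.20 and 8.62, and Col16a1 read 8.14, 7.46 and 8.93 against 7.32, 7.48 and 7.90. Both were highest in EGFP-positive replicate 3, and their groups overlapped. The Col12a1 difference was 1.03 (SE 0.79, limma adjusted p = 1.00), positive in all 3 same-numbered pairs at 1.30, 0.35 and 1.45, and leaving out single libraries gave 0.40 to 1.53. The Col16a1 difference was 0.61 (SE 0.40, limma adjusted p = 1.00), and leaving out single libraries gave 0.23 to 0.97. Col14a1, which regulates fibril diameter, read 8.50, 9.60 and 8.37 against 7.85, 9.75 and 9.22, highest in the replicates numbered 2. Its difference of -0.12 (SE 0.59, limma adjusted p = 1.00) turned positive when replicate 1 or 3 of the EGFP-positive or replicate 2 or 3 of the EGFP-negative label was left out, up to 0.29.

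The short-chain network collagens and a transmembrane collagen varied among libraries of 1 label as much as between labels. Col8a1, a chain of collagen VIII in vessel walls, read 7.81, 8.95 and 8.35 against 7.17, 8.29 and 8.83, a difference of 0.27 (SE 0.51, limma adjusted p = 1.00). It was -0.19 without EGFP-negative replicate 1. Col8a2, its partner, read 6.45, 6.03 and 4.05 against 4.07, 5.46 and 4.80, so that EGFP-positive replicate 3 was its lowest library. Col23a1, a transmembrane collagen, read 3.97, 5.82 and 2.54 against 3.38, 5.10 and 4.13, and both replicates numbered 2 were the highest of their label.

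The 18 genes under 4 in all libraries included 11 of the other collagens. Col13a1, a transmembrane collagen of neuromuscular junctions, read 2.18, 2.14 and 2.23 against 2.45, 3.16 and 3.32, without overlap. Its difference was -0.79 (SE 0.25, limma unadjusted p = 0.0204, adjusted p = 0.986), at a level where the size of a difference cannot be read with confidence. Col9a3, a cartilage FACIT chain, read 2.13, 2.01 and 2.78 against 1.99, 1.79 and 1.88, and its 2 other probe sets overlapped. Col22a1 and Col19a1 also did not overlap, but their differences were only -0.22 and -0.11 and their values lay between 1.20 and 2.09. Col7a1, Col9a1, Col9a2, Col10a1, Col17a1, Col25a1 and Col26a1 stayed between 1.05 and 3.77 with overlapping groups. The 18 other collagens had a median difference of 0.14, with 12 positive and 6 negative.

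**Figure D4:**
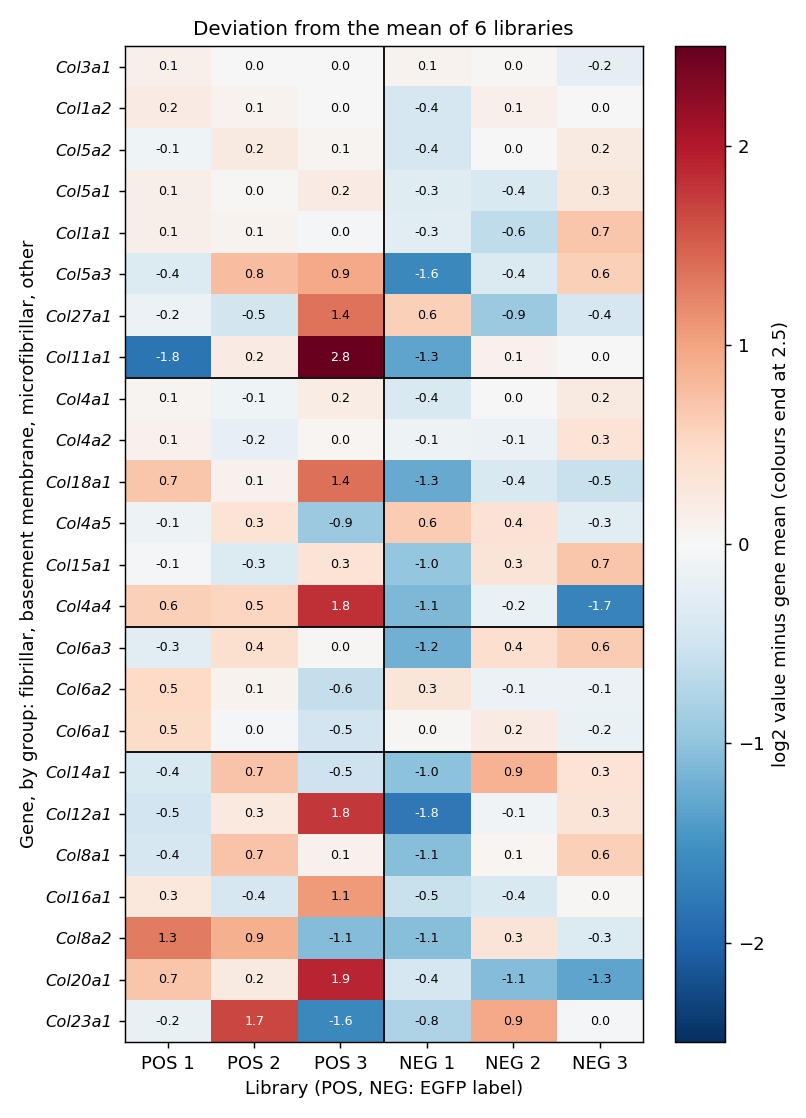
Log2 value minus the gene's mean over 6 libraries (colour and number) for the 24 collagens that reached 4 in at least 1 library, with libraries as columns and collagen groups set apart by lines. EGFP-negative replicate 1 is below the gene mean for most genes, and EGFP-positive replicate 3 holds the highest values of Col11a1, Col12a1, Col18a1, Col20a1 and Col4a4.

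Single libraries carried much of the variation among abundant collagens. Of the 16 collagens at 6 or more throughout, 9 had their lowest value in EGFP-negative replicate 1, or 56.2%, beside 25.1% of the 3436 genes at that level. The median deviation of those 16 genes from their own means was -0.40 in that library, and between 0.02 and 0.23 in the other 5. The part of this library's lower number of bright probe sets in the collagen values was not tested. The within-group SD of the 16 collagens had a median of 0.46, beside 0.28 over the 3436 genes. It was 0.26 for the 5 fibrillar genes among them and 0.78 for the 4 other collagens.

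Replicates with the same number deviated together over all genes, so differences within numbers were examined too. The EGFP-positive library was the higher in all 3 pairs for 7 collagens, or 16.7%, beside 11.3% of all genes, and the lower in all 3 pairs for 7, or 16.7%, beside 16.2%. The 7 higher ones were Col18a1, Col4a4, Col20a1, Col12a1, Col5a3 and the dim Col9a3 and Col26a1. The 7 lower ones were Col4a5 and the dim Col4a6, Col6a5, Col13a1, Col17a1, Col19a1 and Col22a1. With the number as a block in limma, 7 collagens had an unadjusted p under 0.05, or 16.7%, beside 7.39% of all genes, and 0 passed an adjusted p of 0.05, as did 0 of all genes (0%). The lowest adjusted p among the collagens was 0.661.

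**Figure D5:**
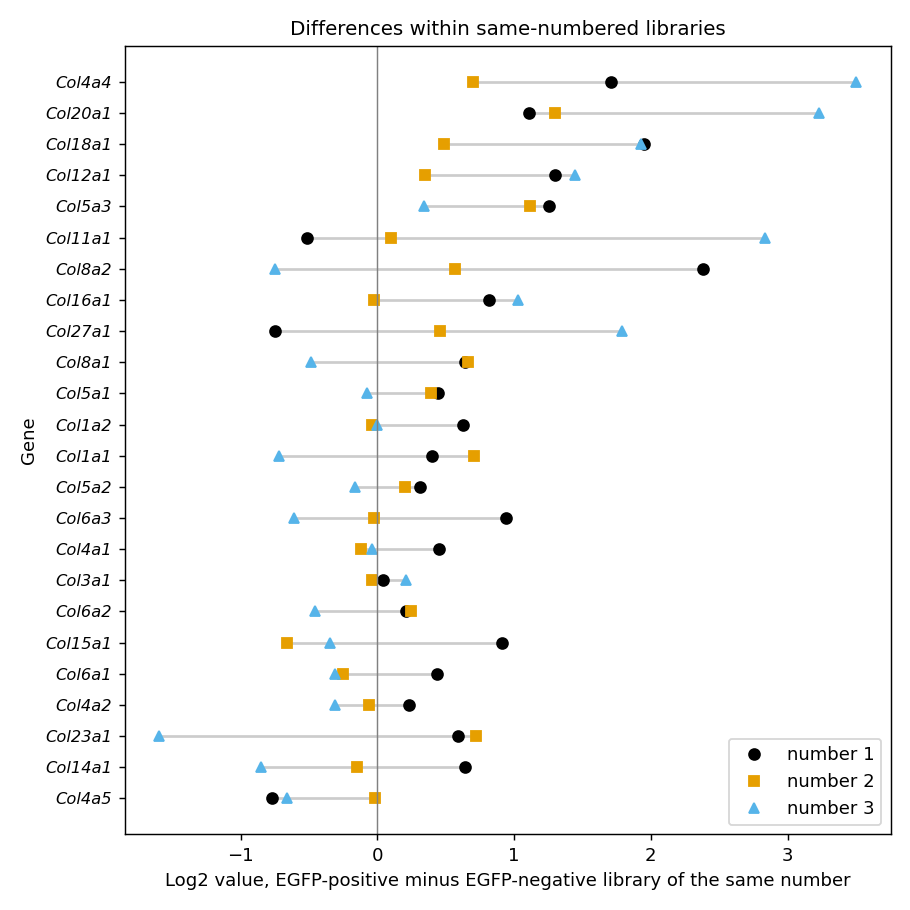
Log2 value of the EGFP-positive library minus that of the EGFP-negative library with the same number (horizontal axis), for the 24 collagens that reached 4 in at least 1 library. Black circles, orange squares and blue triangles are the replicates numbered 1, 2 and 3. For Col4a4, Col20a1, Col18a1, Col12a1 and Col5a3 every point lies above 0, and for Col4a5 every point lies below it.

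Markers of enteric glia, the supporting cells of the ganglia, had a higher mean under the EGFP-positive label. Col18a1, Col4a4 and Col20a1 did too, but they were taken up here because their groups separated in that direction. Of 10 listed glial genes 9 were measured, and 0 stayed under 4 throughout. Of the 9, 5 were higher without overlap (Sox10, S100b, Kcna1, Sostdc1 and Scn7a), beside 3.07% over all genes, while Gfap, Foxd3, Entpd2 and Cdh19 overlapped. The marker lists were chosen with earlier results of these data known, so such shares are no independent test. The mean of the 9 glial genes was 6.93, 6.72 and 8.87 against 4.56, 6.35 and 5.90. It was highest in EGFP-positive replicate 3, as were those 3 collagens, and the pan-neuronal mean had its highest value there too. Among the EGFP-positive libraries those 3 collagens followed the order of the glial mean, an order that the pan-neuronal and smooth muscle means had too. Among the EGFP-negative libraries Col18a1 followed the order of the glial mean, which was also that of the fibroblast-like mean (9.17, 10.34 and 10.07). Col4a4 and Col20a1 did not follow it there, and Col20a1 was highest where the glial mean was lowest. Macrophage markers moved the opposite way, at 6.25, 3.12 and 2.01 against 7.75, 8.32 and 6.35, with 4 of 10 lower without overlap, beside 6.04% of all genes. Smooth muscle (8.29 to 10.23 against 8.54 to 10.50) and endothelial markers (4.87 to 6.76 against 6.13 to 6.42) overlapped, with 0 of 10 members without overlap in each list. Mesothelial (7.32 to 9.67 against 7.56 to 9.38) and epithelial markers (4.22 to 7.33 against 4.85 to 6.41) did so as well. Within same-numbered pairs, however, the smooth muscle mean was always lower under the EGFP-positive label, at 8.70, 8.29 and 10.23 against 9.10, 8.54 and 10.50. Actg2, Tagln, Cnn1, Des, Lmod1 and Myl9 were lower in every pair, beside 16.2% of all genes, while Acta2, Myh11, Smtn and Synm were not. The part of these cells in the collagen values was not tested, and in such bulk libraries fewer cells of a type and less RNA per cell cannot be told apart.

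None of the genes that modify and fold collagen chains passed the test. Of 20 listed genes 19 were measured, and the median difference was 0.11 beside -0.02 over all genes. P4ha3, a catalytic subunit of the prolyl 4-hydroxylase that stabilises the helix, read 4.16, 4.15 and 5.38 against 3.68, 3.66 and 4.09. It was the one member of 19 (5.26%) higher without overlap, beside 3.07% of all genes, with a difference of 0.75 (SE 0.38, limma adjusted p = 1.00) that was 0.35 without EGFP-positive replicate 3. P3h2, a prolyl 3-hydroxylase that acts on collagen IV, had the largest difference, at 6.53, 6.13 and 7.84 against 3.92, 5.93 and 6.40. That is 1.42 (SE 0.78, limma adjusted p = 1.00), highest in EGFP-positive replicate 3, and 0.67 without EGFP-negative replicate 1. Tmem38b, an ion channel of the endoplasmic reticulum needed for collagen processing, had the lowest, at 3.87, 4.11 and 5.37 against 3.42, 5.11 and 6.09. Its difference of -0.42 (SE 0.78) was 0.19 without EGFP-negative replicate 3. Serpinh1, the collagen chaperone HSP47, read 11.64, 11.20 and 11.37 against 11.57, 10.90 and 11.41, and was chosen for naming after its values were seen.

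None of the genes that trim procollagen and crosslink fibrils passed the test. Of 13 listed genes 10 were measured, 0 were without overlap in either direction, and the median difference was -0.05. Pcolce2, which speeds removal of the propeptide, read 5.07, 6.85 and 4.28 against 4.74, 7.94 and 6.81, a difference of -1.10 (SE 1.03, limma adjusted p = 1.00). It was -0.37 without EGFP-negative replicate 2 and -1.97 without EGFP-negative replicate 1. Both replicates numbered 2 were the highest of their label. Loxl3, a lysyl oxidase that starts crosslinks, had the largest difference, 0.37 (SE 0.28), at 6.13, 6.22 and 6.24 against 5.25, 5.90 and 6.33. Without EGFP-negative replicate 1, its lowest library, the difference was 0.083, and without EGFP-negative replicate 3 it was 0.62.

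Of 12 listed collagen receptors 11 were measured, 0 passed and 1 (9.09%) was higher without overlap, beside 3.07% of all genes. This was Adgrg6, an adhesion receptor known for binding collagen IV and for its role in Schwann cells, the glia of peripheral nerves. It read 6.14, 6.24 and 7.95 against 3.63, 5.90 and 6.05. Its difference was 1.58 (SE 0.83, limma adjusted p = 1.00), with the highest library again EGFP-positive replicate 3, and it was 0.80 without EGFP-negative replicate 1. Ddr2, a kinase receptor for fibrillar collagen, had the lowest difference, -0.61 (SE 0.43, limma adjusted p = 1.00), at 6.65, 7.65 and 7.36 against 7.07, 7.999 and 8.41. The EGFP-positive library was the lower in each pair. Leaving out EGFP-positive replicate 1 or EGFP-negative replicate 3 gave -0.32 for each, and leaving out EGFP-negative replicate 1 gave -0.98. The median difference of the receptors was -0.12.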

How the data were processed

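The authors deposited log2 values for each probe set on each array, computed by RMA per the submitters' processing notes. The sources used here do not give the software version or settings. Distributions of the deposited values still differed between arrays, with medians of 1.91 to 1.99 and 6182 to 7621 probe sets at 6 or more. The values ran from 0.05 to 15.20, and 3909 of 18193 genes had equal values (within 1e-06) in at least 2 libraries, among them 7 collagens. Symbols came from the platform annotation, in which 34945 probe sets had 1 symbol, 932 several and 9160 none. All 42 collagen symbols matched RefSeq by gene ID. Of 27 collagens with several probe sets, 12 had 1 or more of opposite sign.

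The labels were tested against each other in limma 3.58.1 (R 4.3.3, two-sided, lmFit then eBayes). P-values were adjusted by Benjamini-Hochberg across the 18193 genes. The code was tested on simulated data whose spread was capped below the median spread of the abundant collagens. That run does not measure the power of the test here. The replicates are labelled biological, and p-values measure the spread among these 6 pooled libraries. Deviations from the group means correlated at 0.36, 0.32 and 0.42 for same-numbered libraries over all genes, and at -0.41 to -0.01 for others. Each label was centred on its own mean, so the others must be negative on balance once same-numbered libraries correlate positively. The labels do not say what a number marks, but these correlations meet the rule set for pairing, so a fit with the number as a block is given beside the fit without it. Levels of 4 and 6 only sort genes for description. Named in full were collagens at 6 or more in all libraries or without overlap and a mean of 4 or more, and in other lists members without overlap and those with the highest and lowest difference. Members and lists were chosen with earlier results of these data known. Some listed genes, Col6a6 and Col28a1 among them, were not analysed here.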

Additional observations from a re-analysis of the deposited data

How the results depend on the processing

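In 15 other settings 0 collagens passed, and Col18a1, Col20a1 and Col4a4 stayed positive in each (0.96 to 1.81, 0.65 to 2.24 and 1.42 to 2.38). These 3 genes had groups without overlap. Leaving out 1 library, weighting arrays, adding the block or changing the variance settings therefore could not turn their signs. The replicate block changed no call: Col18a1 had an adjusted p of 0.661 with the number as a block. Leaving out 1 library gave 0 to 2 called genes overall (Ccr2 and Fermt3 without EGFP-positive replicate 1) and 8 to 13 collagens without overlap, or 19.0% to 31.0%, beside 15.5% to 21.9% of all genes in the same settings. Fewer libraries separate more often, and with all libraries 7 collagens (16.7%) and 9.11% of all genes did. Centring on 43 ribosomal protein genes moved the median of all genes by 0.36. It gave 39 positive and 3 negative collagens in place of 25 and 17, so that 92.9% were positive beside 89.2% of all genes, and 14 without overlap, or 33.3% beside 30.6% of all genes. Among genes above the median level 3 of 24 collagens were without overlap, or 12.5% beside 9.67% of all such genes. Ribosomal centring shifts every gene alike, so the collagen median relative to all genes stayed at 0.10 by construction. That relative median was 0.046 with the mean of probe sets and 0.17 among genes above the median level.

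Group medians with ribosomal centring were 0.49 (fibrillar), 0.34 (basement membrane), 0.31 (microfibrillar) and 0.50 (other). A second quantile normalisation gave 0.33 (fibrillar) and 0.10 (microfibrillar), and genes above the median level gave 0.61 (other). Leaving out 1 library gave 0.04 to 0.26, -0.10 to 0.18, -0.15 to 0.12 and 0.094 to 0.27 in that order. Ribosomal centring turned the sign of 14 collagens, among them, of the genes named by the rule, Col14a1 (0.24), Col4a2 (0.31), Col6a1 (0.31), Col15a1 (0.33), Col19a1 (0.25), Col22a1 (0.13) and Col23a1 (0.26). Among named genes, signs turned with quantile normalisation for Col3a1 (-0.0082), Col4a2 (0.039) and Col6a1 (0.10), and with median centring for Col6a2 (-0.035). With the mean of probe sets they turned for Col3a1 (-0.014), Col4a1 (-0.0096), Col6a2 (-0.070), Col19a1 (0.031) and Col23a1 (0.020), and with array weights for Col4a1 (-0.060), Col6a3 (-0.11) and Col23a1 (0.30).

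Leaving out 1 library turned the sign of these differences of named genes, given as lowest and highest: Mapt -0.11 to 2.00, Col14a1 -0.66 to 0.29, Col1a1 -0.15 to 0.51, Col3a1 -0.019 to 0.13, Col4a1 -0.072 to 0.24, Col4a2 -0.13 to 0.12, Col5a2 -0.062 to 0.26, Col6a1 -0.28 to 0.19, Col6a2 -0.25 to 0.30, Col6a3 -0.48 to 0.44, Col8a1 -0.19 to 0.64, Col11a1 -0.41 to 1.93, Col15a1 -0.52 to 0.31, Col23a1 -0.95 to 0.69, Col27a1 -0.057 to 0.92 and Tmem38b -1.15 to 0.19.

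Chosen after seeing the data, a fit without both EGFP-positive libraries with Mapt at background assumes that the lone library varies like the others. It called 0 genes and left 27 collagens without overlap, or 64.3%, beside 52.4% of all genes, a share that 1 library against 3 makes large. It gave Col18a1 at 2.11, Col20a1 at 2.84 and Col4a4 at 2.82. Medians were 0.13 (basement membrane) and -0.26 (microfibrillar), and signs of named genes turned for Col4a2 (0.018), Col6a2 (-0.60), Col15a1 (0.33), Col8a2 (-0.73) and Tmem38b (0.50). The causes were not tested. Signals near background limit the dim collagens.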
